A study of Mus musculus with 4 samples.

Results

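The genes described here are 7 genes of peripheral glia and nerve, measured in mouse epididymal white adipose tissue, the visceral fat depot beside the testis. They were taken by symbol from a table of 39179 genes and comprise Sox10, Cdh19, S100b, Mbp and Pmp22, which mark Schwann cells or myelin, Ngfr, the p75 neurotrophin receptor, and Th, which encodes tyrosine hydroxylase. They were chosen with their values in these libraries known, so their own levels are given as a description, with no test. Polyadenylated RNA was sequenced in 2 libraries labelled Nck2 KO, whose genotype is given as Nck2 mutant, and 2 libraries labelled WT, all on a mixed genetic background. Age, the nature of the Nck2 mutation and whether a library came from 1 animal or a pool are not given in the sources used here, and nothing says that replicates are separate animals, so p-values measure the spread between these libraries only.

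Fat is reached by sympathetic nerve fibres that release noradrenaline, which drives lipolysis, and by sensory fibres. The cell bodies of these neurons lie in ganglia outside the fat pad, so a tissue sample holds mainly axons, together with the Schwann cells that wrap them. Schwann cells arise from the neural crest under the transcription factor SOX10, survive on neuregulin signals received through ERBB3, and either myelinate an axon or ensheathe several small fibres. Neurotrophins made by target tissues support sympathetic and sensory neurons, and p75 is one of their receptors.

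Sequencing gave between 31831904 and 37980391 reads assigned to genes per library. Values are the authors' normalized counts, which are read counts divided by a size factor per library. Log2 fold changes are KO minus WT on log2(normalized count + 1), with a standard error (SE), and p-values from limma were adjusted by Benjamini-Hochberg across the 16710 genes whose mean reached 10. In that fit 46.7% of genes passed an adjusted p under 0.05, 22.4% higher and 24.4% lower in KO. Total-count scaling in place of the authors' size factors moved the median log2 fold change of all genes to -0.21, against -0.01, and gave 2507 higher and 5561 lower genes (31.1% of calls higher), against 3735 and 4074 (47.8% higher). Nck2 itself was at 1076 and 947 in the KO libraries, against 1279 and 1667 in the WT libraries. That total over all exons does not check the genotype labels, since the altered part of the gene is not known here.

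The 7 genes split into 4 that were lower and 3 that were higher in the KO libraries, with no overlap between the groups for any of them. Over all genes tested, both KO libraries lay below both WT libraries for 40.6% and above them for 38.9%. The genes had been chosen from this contrast, so nothing is read from these counts. Of the 7 genes, 6 passed the filter on low values and Th did not. Fewer Schwann cells or axons in a sample, less RNA per cell and a different mix of tissues between the samples cannot be told apart in bulk tissue.

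The samples were read for 8 Schwann cell markers, of which Sox10, S100b and Cdh19 are among the 7 genes and so add nothing independent. None of the 8 was at 0 in any library. The 5 others, which include Erbb3, Foxd3 and Gfap, were all lower in both KO libraries than in both WT libraries, with sums of 289 and 198 normalized counts in KO and 3380 and 3449 in WT. Erbb3 made up most of that WT sum, and without it the other 4 summed to 97 and 106 in KO and 986 and 942 in WT. Over all 8 the sums were 422 and 426 in KO and 3791 and 4030 in WT, or 230 and 335 in KO and 1398 and 1522 in WT without Erbb3. Of the 7 genes, S100b, Mbp and Pmp22 lay above WT in KO, and Sox10, Cdh19, Ngfr and Th below.

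Markers of other cells were read in the same comparison. Over all genes tested 22.4% were called higher and 24.4% lower. Of 20 male tract genes 15 were tested, of which 9 fell (60.0%) and 6 did not pass. The 20 genes summed to 136 and 119 in KO and 438158 and 383971 in WT. In both KO libraries 12 of the 20 were at 0, among them Lcn5, Lcn12 and Gpx5. Crisp1 (343811 and 334537) and Spink8 (42524 and 42542) made up most of the WT sums. Other genes differed between WT replicates 1 and 2, with Svs2 at 12085 and 63.3, Svs4 at 11735 and 6.51 and Lcn5 at 1825 and 94.9. Lcn12 was close in both (111 and 108), and Gpx5 was higher in WT replicate 2 (12.2 and 207). Of 15 smooth muscle and mural genes 9 fell (60.0%) and 2 rose (13.3%). Their sums were 69906 and 79483 in KO and 474970 and 610276 in WT. Of 12 adipocyte genes 10 rose (83.3%) and 0 fell, with sums of 1393218 and 1527109 in KO and 562369 and 387765 in WT. The adipocyte genes Adipoq, Lep and Plin1 were present in all 4 libraries, which does not show that a sample held fat alone. The 12 macrophage genes in the table all rose, with sums of 64604 and 59560 in KO and 29804 and 29149 in WT. Of 9 endothelial genes 7 rose (77.8%), with sums of 51392 and 59669 in KO and 33708 and 27890 in WT. Mesothelial sums were 26451 and 5136 in KO and 14410 and 22041 in WT (1 of 8 genes lower), and progenitor sums were 114457 and 95534 in KO and 85163 and 81371 in WT (2 of 10 higher and 2 lower). The part of these differences in the levels of the nerve and glial genes was not tested.

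**Figure D1:**
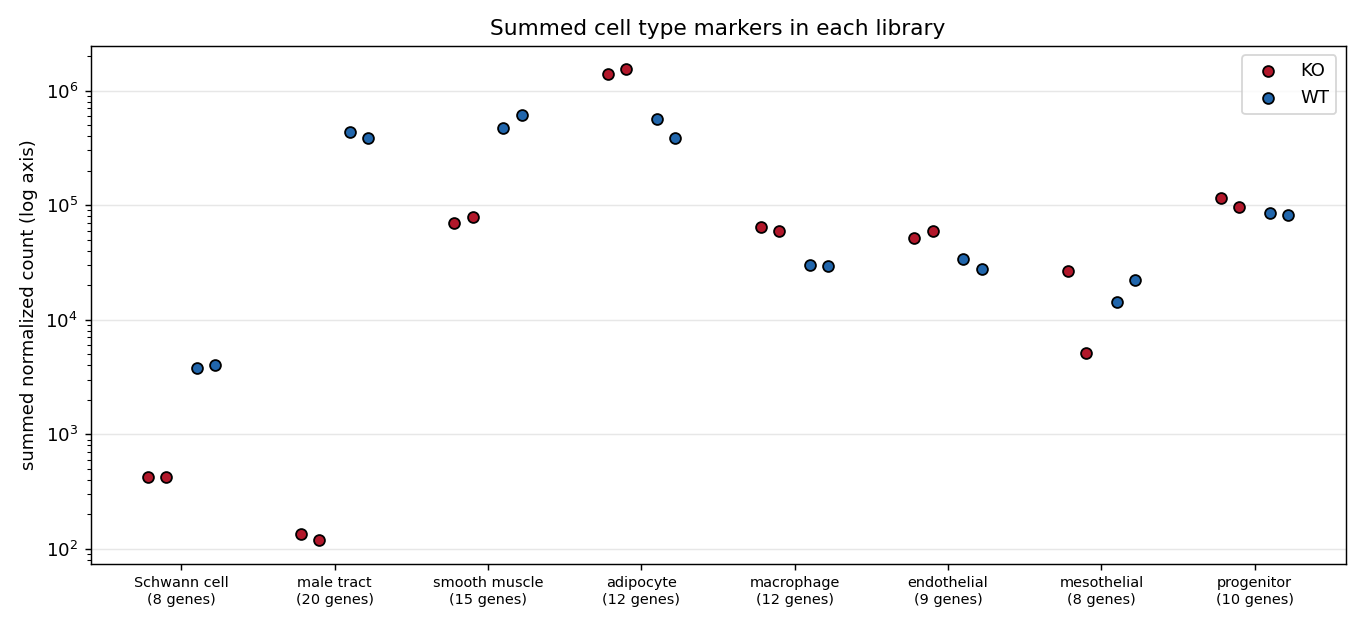
Summed normalized counts of cell type marker lists in each library on a log axis, KO left of WT within each list. The 8 Schwann cell markers (422 and 426 in KO, 3791 and 4030 in WT), the male tract genes and the smooth muscle genes were lower in both KO libraries, and the adipocyte, macrophage and endothelial sums were higher.

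Sox10 (ENSMUSG00000033006, GRCm38 chromosome 15, 79154908 to 79165240) encodes the transcription factor that specifies and maintains the Schwann cell lineage. It was at 14.99 and 6.69 normalized counts in the KO libraries, against 130.4 and 179.6 in the WT libraries. The KO values rest on 16 and 6 reads. Means were 10.8 ± 5.87 in KO and 155 ± 34.8 in WT (SD, n = 2 each, as for the genes below). The WT mean was 14.3-fold the KO mean, and the log2 fold change was -3.80 (SE 0.45), running from -4.32 without KO replicate 1 to -3.27 without KO replicate 2. A fold change of -3 or less was found for 7.95% of all genes tested, and Cdh19 and Ngfr also had one.

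Cdh19 (ENSMUSG00000047216, chromosome 1, 110888326 to 110977584) encodes a cadherin adhesion protein found on Schwann cell precursors and non-myelinating glia. Its normalized counts were 30.9 and 25.7 in KO and 211 and 315 in WT, with means of 28.3 ± 3.72 in KO and 263 ± 73.9 in WT. Both KO libraries were far below the lower WT library, and the log2 fold change was -3.15 (SE 0.28), a WT mean 9.30-fold that of KO.

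Ngfr (ENSMUSG00000000120, chromosome 11, 95568818 to 95587735) encodes p75, a receptor that binds all neurotrophins at low affinity and is carried by immature and non-myelinating Schwann cells, by sympathetic and sensory axons and by some mesenchymal cells. It was at 25.3 and 19.0 in the KO libraries, against 468 and 509 in the WT libraries. Means were 22.1 ± 4.48 in KO and 488 ± 29.2 in WT. Replicates were close in both groups, and the WT mean was 22.1-fold the KO mean, with a log2 fold change of -4.41 (SE 0.21).

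Th (ENSMUSG00000000214, chromosome 7, 142892752 to 142931128) encodes tyrosine hydroxylase, the rate-limiting enzyme of catecholamine synthesis. It had 0 reads in both KO libraries, against 12 and 10 reads, or 12.2 and 9.30 normalized counts, in the WT libraries. A count of 0 allows up to 3 reads, which is 2.81 normalized counts in KO replicate 1 and 3.35 in KO replicate 2. With the KO group set to 3 reads over both libraries and the 22 WT reads taken as exact, Th was 7.0-fold higher in WT. The mean over the 4 libraries was under 10, so the gene was not tested.

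S100b (ENSMUSG00000033208, chromosome 10, 76253853 to 76261159) encodes a calcium-binding protein used as a Schwann cell and astrocyte marker, and in rodents it is also known from adipocytes. It was at 87.1 and 196 in KO and at 70.3 and 85.6 in WT, with means of 142 ± 77.2 in KO and 77.9 ± 10.8 in WT. The lower KO library stood just above the higher WT library, and the KO libraries differed 2.25-fold from each other. The log2 fold change of 0.75 (SE 0.44) became 1.33 without KO replicate 1 and 0.17 without KO replicate 2.

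Mbp (ENSMUSG00000041607, chromosome 18, 82475146 to 82585637) encodes myelin basic protein, which compacts the myelin sheath, and its locus also gives the golli transcripts known from immune cells. The normalized counts were 1949 and 1871 in KO and 1569 and 1654 in WT, with means of 1910 ± 54.9 in KO and 1612 ± 60.2 in WT. The groups were separate but close, with a log2 fold change of 0.25 (SE 0.067) that was 0.05 with total-count scaling. Gene totals do not separate classic and golli transcripts.

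Pmp22 (ENSMUSG00000018217, chromosome 11, 63128982 to 63159547) encodes a membrane protein of compact peripheral myelin that is also made by fibroblasts, endothelium and epithelia. It was at 7384 and 6933 in KO and at 5613 and 4088 in WT, with means of 7158 ± 319 in KO and 4851 ± 1078 in WT. The KO mean was 1.48-fold the WT mean, with a log2 fold change of 0.58 (SE 0.17), or 0.81 with WT replicate 1 left out and 0.35 with WT replicate 2 left out. With total-count scaling it was 0.38, and that of S100b 0.55. None of the 7 genes shares exon bases with another annotated gene in GENCODE M21.

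**Figure D2:**
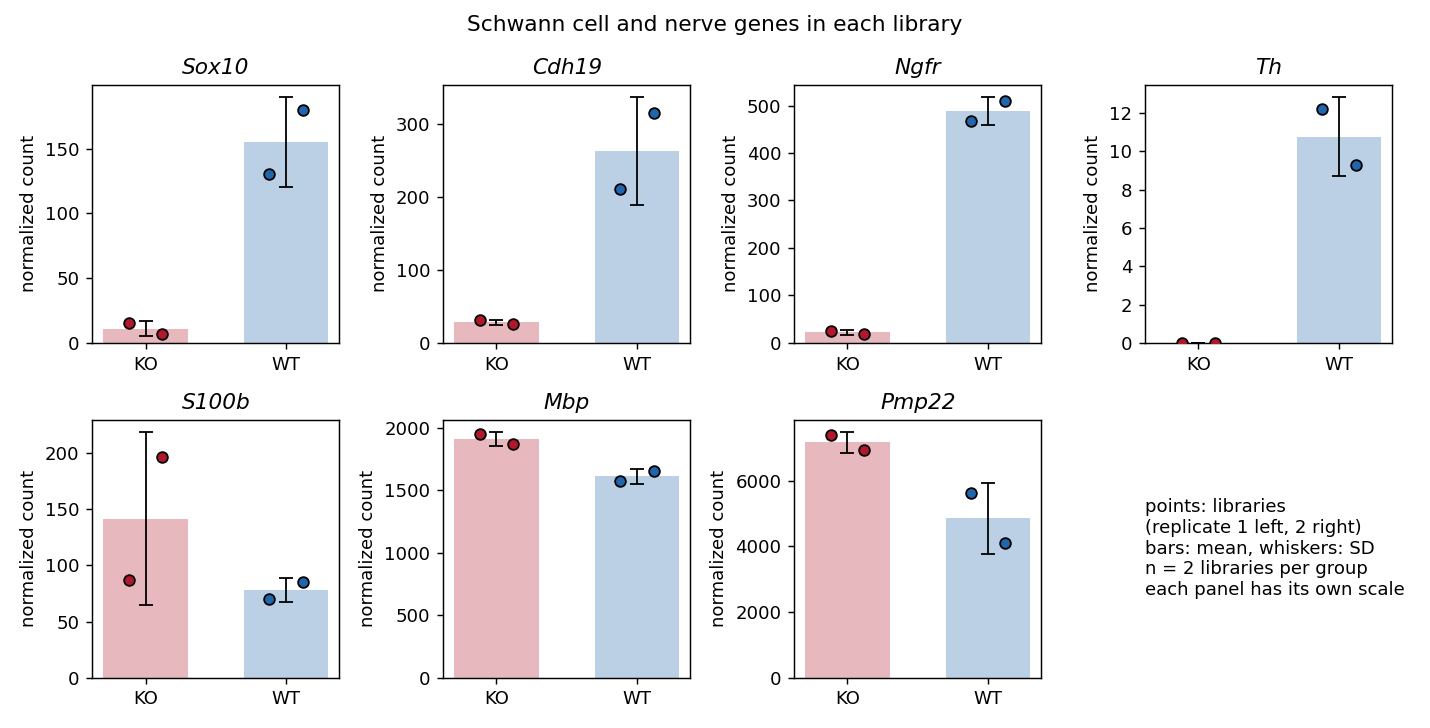
Normalized counts of the 7 genes, 1 panel per gene with its own linear scale from 0. Points are libraries, bars are means and whiskers SD (n = 2 per group, KO left of WT). Sox10, Cdh19, Ngfr and Th were lower in both KO libraries (for Sox10 14.99 and 6.69, against 130.4 and 179.6), and S100b, Mbp and Pmp22 were higher.

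The authors' deposited table gave the same split, with log2 fold changes of -3.66 for Sox10, -3.14 for Cdh19, -4.39 for Ngfr and -3.76 for Th. For S100b, Mbp and Pmp22 the authors' deposited table gave 0.83, 0.24 and 0.56.

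Promoter windows are shown for 3 genes that went different ways, Th and Ngfr, lower in KO, and S100b, higher in KO. RefSeq's table (GRCm38.p6) matched 4 of the 7 genes. Each line gives the 250 bases before the RefSeq transcription start, 5′ to 3′ on the gene's strand, from chr7:142899996-142900245 (minus strand) for Th, chr11:95587699-95587948 (minus strand) for Ngfr and chr10:76253586-76253835 (plus strand) for S100b. Capitals mark the cAMP response element letters TGACGTCA, the binding letters of CREB family factors, which are a known element of the Th promoter.
Th: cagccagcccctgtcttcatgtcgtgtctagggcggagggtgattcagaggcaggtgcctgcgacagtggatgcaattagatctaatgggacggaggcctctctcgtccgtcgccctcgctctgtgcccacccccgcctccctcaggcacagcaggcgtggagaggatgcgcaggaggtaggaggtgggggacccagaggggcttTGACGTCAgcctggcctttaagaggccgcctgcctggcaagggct
Ngfr: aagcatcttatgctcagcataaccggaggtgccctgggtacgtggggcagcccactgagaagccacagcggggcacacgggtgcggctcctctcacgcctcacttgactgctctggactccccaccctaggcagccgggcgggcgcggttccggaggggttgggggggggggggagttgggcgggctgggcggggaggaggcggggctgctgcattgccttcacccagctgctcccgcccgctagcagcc
S100b: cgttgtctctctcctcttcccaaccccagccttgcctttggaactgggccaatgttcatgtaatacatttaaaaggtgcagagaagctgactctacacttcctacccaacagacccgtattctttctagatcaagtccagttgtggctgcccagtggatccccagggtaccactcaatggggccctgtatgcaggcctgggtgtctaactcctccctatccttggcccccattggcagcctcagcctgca
The element began 45 bases before the start of Th and was in neither other window. It was present in 1.55% of 32851 windows of this length. The SOX letters ACAAAG and ACAATG and the TATA letters TATAAA, searched on both strands, were in none of the 3 windows, which hold them in 16.46%, 10.69% and 12.37% of cases over all windows. The share of G and C was 64.4% for Th, 70.4% for Ngfr and 53.6% for S100b, against a median of 52.4% over all windows. These matches are descriptions of letters and say nothing of binding.

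Levels of different genes were compared per kilobase of merged exon. In the WT libraries the order of mean levels was Pmp22 (2061 normalized counts per kilobase), Mbp (190.3), Ngfr (142), Cdh19 (61.5), S100b (52.5), Sox10 (50.8) and Th (4.55). Cdh19, S100b and Sox10 overlapped between libraries in WT and have no order there. In the KO libraries Pmp22 (3041) and Mbp (226) were at the top too, S100b (95.5) came next, and Cdh19 (6.61), Ngfr (6.42) and Sox10 (3.55) were at the bottom above Th, which had no reads. Cdh19 and Ngfr overlapped in KO, while both Sox10 levels of 4.91 and 2.19 lay below theirs. Per kilobase Ngfr was at 7.34 and 5.50 in KO and at 136 and 148 in WT, below both Mbp libraries in each group (230.1 and 221 in KO, 185 and 195 in WT).

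Likeness of pattern was measured as the Euclidean distance between log2 values centred on each gene's own mean over the 4 libraries, searched over the 14030 genes other than the gene itself whose mean reached 50. The nearest to Sox10 were Shank2 (distance 0.037) and Proser2 (0.16), to Cdh19 Fads6 (0.12) and Mmp17 (0.12), and to Ngfr Tmc4 and Mal2 (0.10 each). No nearest genes are given for Th, whose pattern with 0 reads in KO is set by the pseudocount. Amhr2 (0.20) and Paqr7 (0.27) were nearest to S100b, Sergef and Hook3 (0.012 each) to Mbp, and Lacc1 (0.026) and Slc9a5 (0.028) to Pmp22. Within a distance of 1 there were 184 genes for Sox10, 193 for Ngfr and 10527 for Mbp, so over 4 libraries near patterns were shared by many genes.

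Other genes of the same cells and pathways were then read in 6 lists that hold none of the 7 genes. Of 22 myelin genes, 18 were tested, and 11 fell (61.1%, against 24.4% of all genes), 1 rose (5.6%, against 22.4%) and 6 did not pass. Their median log2 fold change was -1.68, against -0.01 over all genes tested.

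The largest falls among the myelin genes were in genes that many epithelia also use. The male tract marker sum, 136 and 119 in KO and 438158 and 383971 in WT, was lower in the same libraries, and its part in these falls and in those of the lists that follow was not tested. Gjb1 encodes the gap junction protein connexin 32 of Schwann cells and secretory epithelia. It had 0 reads in both KO libraries and 793 and 989.9 normalized counts in WT (limma adjusted p = 0.00055). With the KO group set to 3 reads it was 586-fold higher in WT. Mal, a proteolipid of myelin and of apical membranes in epithelia, fell to 13.1 and 8.93 in KO, against 3124 and 2907 in WT (limma adjusted p = 0.00055). Gjc3, a glial connexin, fell to 4.68 and 4.46, against 81.5 and 100.5 in WT (limma adjusted p = 0.0018). Arhgef10, an exchange factor for small GTPases needed for normal myelin thickness in humans, was the 1 gene that rose, by 0.90 (SE 0.077, limma adjusted p = 0.0023). Its exons overlap an antisense gene, and the strand setting of the counting is not stated in these sources. Mag, the myelin-associated glycoprotein, was at 24.4 and 36.8 in KO and at 28.5 and 30.7 in WT and did not pass (limma adjusted p = 0.97). Leaving out WT replicate 1 and then WT replicate 2, so that 1 WT library stood alone, left 6 and 4 myelin genes called lower.

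Most Schwann lineage genes were lower in KO. Of 20 genes, 18 were tested. Of these 14 fell (77.8%, against 24.4% of all genes), 2 rose (11.1%, against 22.4%) and 2 missed the threshold, and the median log2 fold change was -2.94. Erbb3, the neuregulin receptor on which Schwann cells depend, was at 191 and 91.5 in KO and at 2393 and 2507 in WT, a change of -4.20 (SE 0.37, limma adjusted p = 0.0024). Its partner Erbb2 fell by 1.62 (limma adjusted p = 0.0036). Gfap, an intermediate filament of non-myelinating Schwann cells, fell to 5.62 and 4.46 in KO, against 38.7 and 42.8 in WT (limma adjusted p = 0.0051). Foxd3, a neural crest transcription factor, had 3 reads over both KO libraries and 28.5 and 20.5 normalized counts in WT, a WT to KO ratio of 15.9 (exact 95% interval of the counts 5.14 to 79.8).

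The 4 lineage genes with the smallest p were 3 that fell and 1 that rose. Ncam1, a neural adhesion molecule, fell by 6.44 (SE 0.23), to 10.3 and 14.5 in KO, against 1076 and 1219 in WT. Tfap2a, a transcription factor of neural crest and of surface and duct epithelia, fell by 6.71 (SE 0.24), to 5.62 and 5.58 in KO, against 598 and 795 in WT. Kcna1, a potassium channel of axons, fell by 3.09 (SE 0.25). Zeb2, a transcription factor of Schwann cells and many mesenchymal and myeloid cells, rose by 1.24 (SE 0.078), to 16402 and 15228 in KO, against 6618 and 6753 in WT. The limma adjusted p-values of these 4 genes lay between 0.00057 and 0.0021. Scn7a, a sodium channel of non-myelinating Schwann cells, was the other gene that rose, by 0.80 (limma adjusted p = 0.0078, or 0.0512 without WT replicate 2).

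Exons of Ncam1, Tfap2a, Zeb2 and Erbb2 overlap genes on the other strand. A Foxd3 exon also holds an annotated miRNA. The lineage list had 7 genes lower with WT replicate 1 left out and 5 with WT replicate 2 left out. In those fits Erbb3 had limma adjusted p-values of 0.0545 and 0.0672. In the fit lacking WT replicate 2, Kcna1 had 0.0551 and Foxd3 0.0582, and only 1 gene was called higher.

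**Figure D3:**
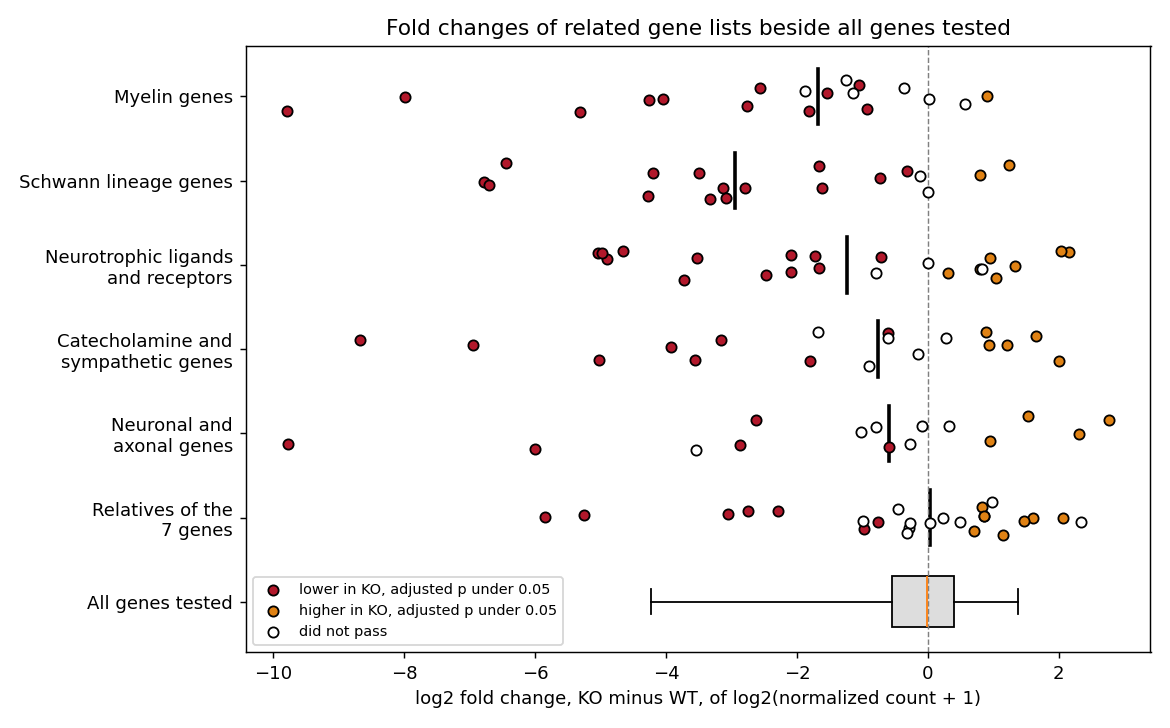
Log2 fold changes (KO minus WT) of the tested genes in 6 lists, 1 point per gene coloured by its call, with a black line at each list's median. The grey box gives the quartiles of all 16710 genes tested, with whiskers at percentiles 5 and 95. The medians were -1.68 for myelin and -2.94 for Schwann lineage genes, against 0.03 for the relatives of the 7 genes.

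Neurotrophic ligands and receptors moved in both directions. Of 25 genes, 22 were tested. Of these 12 fell (54.5%, against 24.4% of all genes), 7 rose (31.8%, against 22.4%) and 3 missed the threshold, and the median log2 fold change was -1.23. The p75 gene Ngfr, which the list does not hold, was at 25.3 and 19.0 in KO and at 468 and 509 in WT. Sort1, encoding sortilin, the p75 partner that binds proneurotrophins and also sorts GLUT4 vesicles in adipocytes, was at 23235 and 23448 in KO and at 25172 and 21539 in WT, and its groups overlapped (limma adjusted p = 0.98). Sorcs2, another p75 partner of the sortilin family, fell by 2.47 (SE 0.17, limma adjusted p = 0.0016).

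The ligand and receptor of the BDNF branch were higher in KO. Ntrk2, the receptor of BDNF, rose to 9604 and 10165 in KO, against 3974 and 3896 in WT, a change of 1.33 (SE 0.067, limma adjusted p = 0.00090). Bdnf itself was at a low level, 42.2 and 26.8 in KO and 6.11 and 7.44 in WT (limma adjusted p = 0.0146, or 0.0706 without KO replicate 1, 0.0811 with WT replicate 1 left out and 0.0828 with WT replicate 2 left out).

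The 3 GDNF family ligands tested were lower. Nrtn, encoding neurturin, a survival factor for autonomic neurons, fell to 1.87 and 2.23 in KO, against 80.5 and 100.5 in WT (limma adjusted p = 0.0015). Artn, encoding artemin, a guidance factor for sympathetic axons, fell to 11.2 and 12.3, against 155.9 and 136 in WT (limma adjusted p = 0.0015). Gdnf had 1 read over both KO libraries and 39.7 and 50.2 normalized counts in WT, a WT to KO ratio of 88.8 (exact 95% interval of the counts 15.6 to 3540, limma adjusted p = 0.0036). Their receptors differed. Gfra3, the artemin receptor of Schwann cells and nociceptors, counted above among lineage genes, was at 18.7 and 22.3 in KO and at 132 and 261 in WT (limma adjusted p = 0.0055). Gfra1, the GDNF receptor, fell by 4.98 (limma adjusted p = 0.0040), while Gfra2, the neurturin receptor, rose by 0.94 (limma adjusted p = 0.0033) and Ret, the signalling subunit they share, rose by 1.04 (limma adjusted p = 0.038).

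Among neuregulins, which signal through ERBB3 and ERBB4, Nrg1, the axonal signal to Schwann cells, had 2 reads over both KO libraries and 33.6 and 51.2 normalized counts in WT, a WT to KO ratio of 42.0 (exact 95% interval of the counts 11.3 to 352, limma adjusted p = 0.0081). Nrg4, an adipocyte neuregulin, was at 2060 and 3629 in KO and at 1033 and 429 in WT, a rise of 2.04 (SE 0.51, limma adjusted p = 0.034). The call for Nrg4 was lost without any 1 of the 4 libraries (limma adjusted p between 0.0501 and 0.165) and with the replicate number as a block (0.068). Leaving out WT replicate 1 and then WT replicate 2 gave limma adjusted p-values of 0.0677 and 0.0918 for Nrg1, 0.0693 and 0.0835 for Gfra1, and 0.229 and 0.186 for Ret. Without WT replicate 2 it was 0.0538 for Gdnf and 0.0597 for Gfra2. For the whole list, 1 to 4 genes were called higher and 3 to 11 lower when 1 library was left out, and 4 were called higher with the block. Exons of Bdnf, Sort1, Gfra1, Nrg1 and Nrg4 overlap genes on the other strand.

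**Figure D4:**
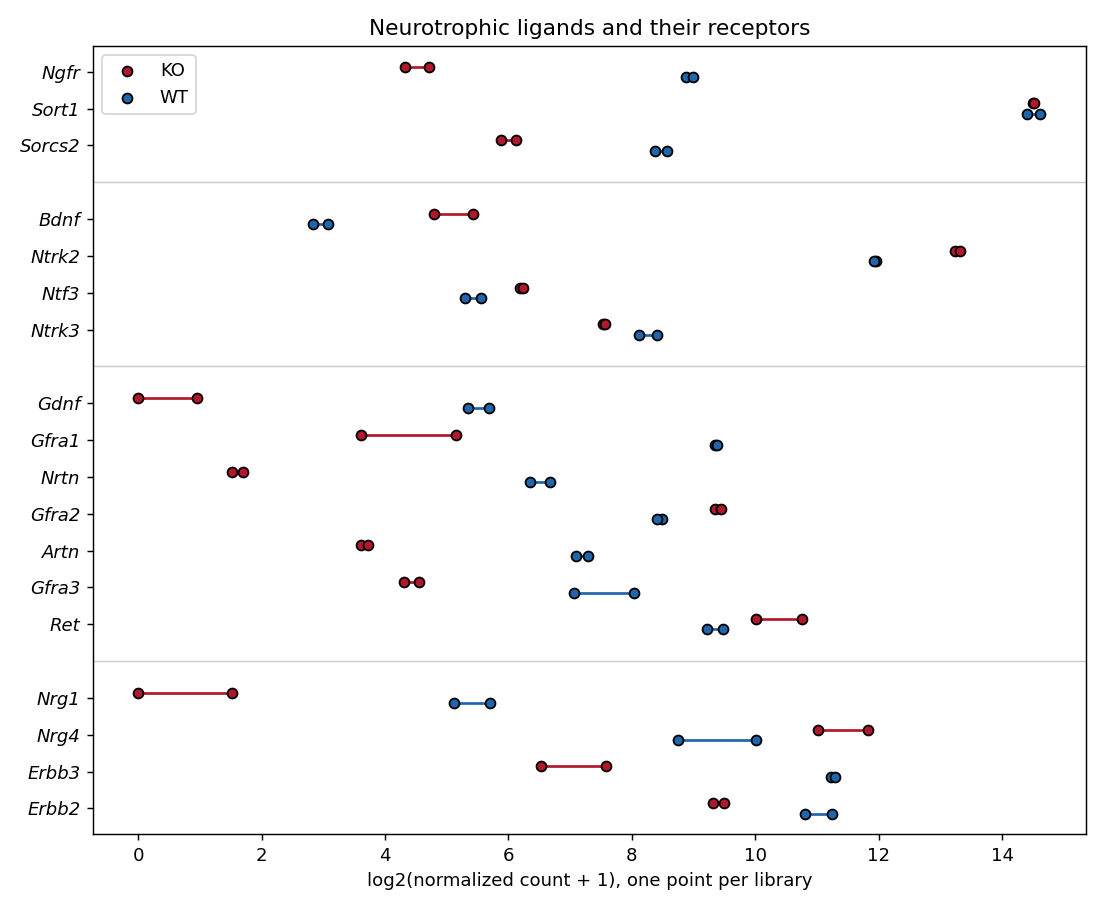
Neurotrophic ligands and receptors as log2(normalized count + 1), with 1 point per library and a line joining the libraries of a group, KO drawn above WT. Blocks from the top are p75 and its partners, the BDNF and NT-3 branch, the GDNF family and the neuregulins. Ngfr and Erbb3 were lower in KO and Ntrk2 was higher (9604 and 10165, against 3974 and 3896).

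Genes of catecholamine synthesis, storage and removal were read along the pathway that Th opens. Of 24 catecholamine and sympathetic genes, 18 were tested. Of these 8 fell (44.4%, against 24.4% of all genes), 5 rose (27.8%, near the 22.4% of all genes) and 5 missed the threshold, and the median log2 fold change was -0.75. Among the synthetic enzymes Gch1, which makes the cofactor of tyrosine hydroxylase, was at 179.9 and 206 in KO and at 167 and 152 in WT and did not pass (limma adjusted p = 0.21). Ddc, the decarboxylase that makes dopamine, was at 14.99 and 3.35 in KO and at 26.5 and 25.1 in WT and did not pass (limma adjusted p = 0.12, or 0.0276 without KO replicate 1). Dbh, which makes noradrenaline, had 0 reads in both KO libraries and in WT replicate 2 and 1 read in WT replicate 1, so it was at the floor in all 4. Pnmt, which makes adrenaline, had 0 reads in both KO libraries and was at 72.3 and 204.7 in WT (limma adjusted p = 0.0025). With the KO group set to 3 reads it was 92.6-fold higher in WT.

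Storage and granule genes went both ways. Npy, encoding the cotransmitter neuropeptide Y, was at 0.94 and 3.35 in KO and at 1036 and 1357 in WT, a change of -8.68 (SE 0.46, limma adjusted p = 0.00096). Cyb561, the cytochrome that keeps ascorbate reduced inside chromaffin granules, fell to 430.1 and 492 in KO, against 7627 and 6357 in WT (limma adjusted p = 0.00055). Slc18a1, a vesicular monoamine transporter of endocrine cells, fell to 17.8 and 20.1, against 221 and 247 in WT (limma adjusted p = 0.0011). Slc18a2, the neuronal form, was at 42.2 and 32.4 in KO and at 48.9 and 66.1 in WT and did not pass (limma adjusted p = 0.16). Scg3, a secretogranin that sorts cargo into secretory granules, rose to 191 and 156 in KO, against 40.8 and 43.7 in WT (limma adjusted p = 0.0033, or 0.0519 with WT replicate 1 left out and 0.0604 with WT replicate 2 left out). Chga, the granule protein chromogranin A, rose to 35.6 and 23.4 in KO, against 7.13 and 10.2 in WT (limma adjusted p = 0.032). The call for Chga was lost with any 1 library left out (limma adjusted p between 0.0671 and 0.133), with the replicate block (0.0769) and in DESeq2 (adjusted p = 0.075).

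Removal went both ways. Slc6a2, the noradrenaline transporter of sympathetic terminals, fell to 79.6 and 59.1 in KO, against 249 and 234 in WT (limma adjusted p = 0.0045). Slc22a3, the extraneuronal transporter, rose by 1.21 (limma adjusted p = 0.0084). Maoa, a monoamine oxidase, rose to 2299 and 2414 in KO, against 1337 and 1216 in WT, a change of 0.89 (limma adjusted p = 0.0025). With WT replicate 1 and then WT replicate 2 left out, the limma adjusted p was 0.0698 and 0.0787 for Slc6a2 and 0.0519 and 0.0859 for Slc22a3, and 2 genes of the list were called higher in each of these fits, with 5 and 6 lower. Exons of Cyb561 and Slc22a3 overlap genes on the other strand, and those of Slc18a2 an antisense gene.

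**Figure D5:**
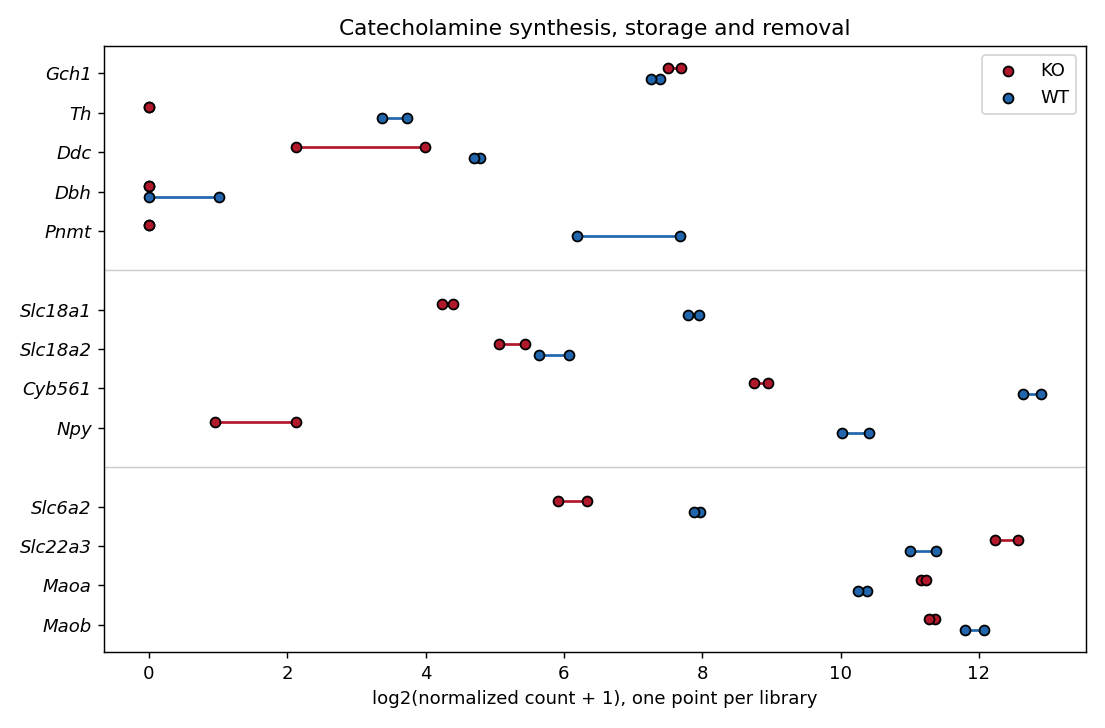
Catecholamine genes as log2(normalized count + 1), with 1 point per library and a line joining the libraries of a group, KO drawn above WT. Blocks from the top are synthesis, storage and removal. Th and Pnmt had no reads in KO, Dbh was at or near 0 in every library, and Maoa was higher in KO (2299 and 2414, against 1337 and 1216).

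Of 26 neuronal and axonal genes 25 were in the table, and 10 of them were too low to test. Among the 15 tested, 5 fell (33.3%) and 4 rose (26.7%), shares near the 24.4% lower and 22.4% higher of all genes, and 6 missed the threshold, and the median log2 fold change was -0.60. Tubb3, the neuronal tubulin, was at 6.56 and 17.9 in KO and at 11.2 and 12.1 in WT, and its groups overlapped (limma adjusted p = 0.92). Tac1, Scn9a, Scn10a and Chat, markers of sensory and cholinergic neurons, had 0 reads in both KO libraries and at most 1.86 normalized counts in a WT library. They were too low to test. Other sensory genes of the list went both ways. Trpv1 rose to 155 and 228 in KO, against 84.6 and 49.3 in WT (limma adjusted p = 0.028, or 0.063 with the replicate block). Calca was at 50.6 and 44.6 in KO and at 36.7 and 39.1 in WT and did not pass (limma adjusted p = 0.32). Calcb and Avil were lower in both KO libraries and did not pass (limma adjusted p = 0.104 and 0.169). Rbfox3, which encodes the nuclear antigen NeuN, was at 3.75 and 7.81 in KO and at 4781 and 6718 in WT (log2 fold change -9.78, limma adjusted p = 0.00064). Map1b, a microtubule protein of growing axons, fell to 1127 and 980 in KO, against 7187 and 8152 in WT (limma adjusted p = 0.00064), and Syt1, the calcium sensor of synaptic vesicles, to 7.50 and 1.12, against 267 and 273 in WT (limma adjusted p = 0.0049). Syp, encoding synaptophysin, rose by 2.77 to 1857 and 2337 in KO, against 278 and 332 in WT (limma adjusted p = 0.0010), and its exons overlap an antisense gene. For Syt1 the limma adjusted p was 0.0740 with WT replicate 1 left out and 0.0880 with WT replicate 2 left out, fits in which 1 gene was called higher and 3 lower. Without KO replicate 2, 1 was called higher, and with the replicate number as a block 2 were.

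The family relatives of the 7 genes showed no common direction. Of 28 genes, 25 were tested. Of these 8 rose (22.4% of all genes did), 7 fell (24.4% of all genes did) and 10 missed the threshold, and the median log2 fold change was 0.03. Sox9, which shares the SOXE group with Sox10, was at 185.5 and 242 in KO and at 302 and 278 in WT and did not pass (limma adjusted p = 0.10), but did with total-count scaling (limma adjusted p = 0.0298). Sox8, the third member of that group, was at 82.5 and 20.1 in KO and at 36.7 and 68.8 in WT, and its groups overlapped (limma adjusted p = 0.78). An antisense gene overlaps a Sox8 exon. Emp1, a relative of Pmp22, rose to 30458 and 42630 in KO, against 8763 and 8405 in WT (limma adjusted p = 0.0025, or 0.0528 with WT replicate 1 left out and 0.0659 with WT replicate 2 left out). Among the S100 genes, S100a11, S100a13 and S100a10 rose by 1.46, 1.14 and 0.83, with limma adjusted p-values between 0.00098 and 0.0019. Cdh20, a type II cadherin like Cdh19, had 0 reads in both KO libraries and was at 41.8 and 32.6 in WT (limma adjusted p = 0.0024). With the KO group set to 3 reads Cdh20 was 24.2-fold higher in WT. The relatives called lower were 2 with WT replicate 1 left out and 1 with WT replicate 2 left out, and those called higher were 5 in the second of these fits.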

How the data were processed

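Per the labels' protocols, RNA was isolated with Trizol and columns and made into TruSeq libraries. The submitters' processing notes name CASAVA 1.8 and TopHat2 2.0.10, then the build GRCm38, besides DESeq2 1.4.5 and HTSeq 0.5.3. The annotation release and strand setting are not given in the sources used here. The values used are normalized counts deposited by the authors (a signal: reads over a size factor). The authors also deposited log2 fold changes, a test score and p-values, of which only the fold changes are quoted. Dividing each column by the value of 1 read gave whole reads for 100% of values within 0.01.

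The test was limma 3.58.1 (R 4.3.3, intensity trend) on log2(normalized count + 1), which understates changes of low genes, at a Benjamini-Hochberg adjusted p under 0.05, on the 16710 genes whose mean reached 10. Alternatives were count tests of the recovered reads (DESeq2 1.42.0, edgeR 4.0.16), other scalings, filters and pseudocounts, a replicate block and each library left out. The steps were tested on simulated data. Exact 95% intervals and floors of 3 reads describe counting error alone, as PCR copies cannot be told apart in these values. Positions and exon lengths came from GENCODE M21 (GRCm38).

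The 7 genes, the lists and the tests were chosen with earlier results of these data known. The text names the 7 genes, up to 4 genes per list with the smallest p, 13 genes by name, and the 2 nearest in pattern to each of the 7 (not given for Th, at 0 reads in KO). Arhgef10, Mag, Erbb2, Foxd3, Scn7a, Bdnf, Gdnf, Gfra1, Gfra2, Gfra3, Ret, Nrg1, Gch1, Ddc, Pnmt, Slc18a2, Slc6a2, Slc22a3, Maoa, Scg3, Chga, Tac1, Scn9a, Scn10a, Chat, Trpv1, Calca, Calcb, Avil, Sox8, the male tract genes named and the genes under the closing observations fall outside that rule and were chosen after their values were seen. Some genes that the rule names are not reported here.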

Additional observations from a re-analysis of the deposited data

How the results depend on the processing

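Across all alternatives run, the 6 tested genes of the 7 kept the sign of their log2 fold change. Ngfr moved to -4.19 with a pseudocount of 5 and Mbp to 0.051 with total-count scaling, each by more than its replicate SD. Counts of list genes moved by over 1.5 times in 2 settings with all libraries, the replicate block (4 neurotrophic and 2 axonal genes higher, against 7 and 4) and a mean of 50 or more (4 relatives lower, against 7, because fewer genes are tested). With 1 library left out, the ranges for higher and lower genes were 650 to 2849 and 1163 to 3477 over all genes, 1 to 1 and 4 to 11 for myelin, 1 to 2 and 5 to 13 for Schwann lineage, 1 to 4 and 3 to 11 for neurotrophic, 2 to 4 and 5 to 10 for catecholamine, 1 to 4 and 3 to 6 for axonal genes, and 5 to 9 and 1 to 7 for relatives. Such a fit leaves 1 library in a group, which is assumed to vary like the other group, and has fewer degrees of freedom. Over the 116 tested list genes, settings with all libraries left the outcome, called or not called, unchanged in 1090 cases. They lost a call in 31 cases and gained a call in 8. The unchanged cases include genes called in neither fit, so they are not a count of calls that were kept. Calls were lost more often when a library was left out. The replicate number as a block gave 2737 higher and 3339 lower genes. No label says that same-numbered libraries are pairs, and their deviations correlated at -0.00904. At this depth Th and Dbh in KO cannot be told from 3 reads or fewer.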

Other observations

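The 2 KO libraries differed from each other for several of the genes read here, chosen after their values were seen. KO replicate 1 was above KO replicate 2 for Cdh11, a mesenchymal cadherin (1101 and 249), Cadm4, a Schwann cell adhesion molecule (181 and 51.3), Ptprz1, a receptor phosphatase of glia (65.6 and 10.04) and Hand2, a transcription factor of sympathetic neurons (37.5 and 6.69). Sox10 was at 14.99 and 6.69 and the mesothelial sum at 26451 and 5136 in the same 2 libraries. S100b (87.1 and 196) and Tph2, a serotonin-synthesizing relative of Th (40.3 and 157), were higher in KO replicate 2.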
